A study of Mus musculus with 2 samples.

Results

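The miR-466, miR-467, miR-669 and miR-297 families were measured in retinas of CD-1 wild-type mice on postnatal day 0, where the group made up 0.0757% ± 0.0105 of the miRNA counts (SD, n = 2). CD-1 is an outbred laboratory strain. The series held 1 group with 2 libraries of small RNA from total retinal RNA, gel-selected at 18 to 30 nt, with no allele, transgene or treatment named in the labels and no second group. Members were chosen by name alone, as every entry of the count table called miR-466, miR-467, miR-669 or miR-297, with any letter, number or arm. There were 71 members among 1358 miRNAs, namely 28 of miR-466, 13 of miR-467, 24 of miR-669 and 6 of miR-297. Whether the libraries came from separate animals is not in the labels, and their spread may be technical. In whole tissue, fewer cells of a type and less RNA per cell cannot be told apart.

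A miRNA is cut from a hairpin transcript as a short RNA from the 5′ arm (5p) or the 3′ arm (3p), and pairs with messenger RNAs mainly through its seed, bases 2 to 8. Most hairpins of these families lie together in an intron of Sfmbt2, a Polycomb-group gene that is imprinted in mouse, with expression from the paternal copy in extraembryonic tissue. The cluster arose in rodents by repeated duplication, is known from mouse embryonic stem cells and placenta, and is needed for normal placental growth. Its hairpins resemble each other closely, so that one read can fit several of them.

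The reads below carry the main levels and the shared counts of the group. Each is the most frequent read that the authors deposited for that member, the same in both libraries, written 5′ to 3′ as DNA with bases 2 to 8 of the read in capitals.
miR-669c-5p: aTAGTTGTgtgtggatgtgtgtat
miR-669l-5p: aGTTGTGTgtgcatgtatatgt
miR-669a-5p and miR-669p-5p: aGTTGTGTgtgcatgttcatgt
miR-669o-5p: tAGTTGTGtgtgcatgtttatgt
miR-669f-3p: cATATACAtacacacacacgtat
miR-467c-5p: tAAGTGCGtgcatgtatatgtg
miR-467d-5p: tAAGTGCGcgcatgtatatgcg
miR-467a-5p: tAAGTGCCtgcatgtatatgc
miR-467b-5p: tAAGTGCCtgcatgtatatg
miR-467e-5p: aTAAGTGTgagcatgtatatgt
miR-466c-5p: tGATGTGTgtgtgcatgtac
miR-466g: aTACAGACacatgcacacact
miR-466d-3p: tATACATAcacgcacacatagt
miR-466a-3p, miR-466b-3p, miR-466c-3p, miR-466e-3p and miR-466p-3p: aTACATACacgcacacataagact
miR-297b-5p: aTGTATGTgtgcatgaacatgt
The 5p reads of miR-669, miR-466 and miR-297 hold runs of alternating TG, the 5p reads of miR-467 hold none, and the 3p reads are rich in A and C.

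The libraries held 8337902 counts in replicate 1 and 8118208 in replicate 2, and levels are given as CPM, the counts scaled to 1000000 counts of the table. A count of 0 leaves room for 3 counts, or 0.36 and 0.37 CPM. This limit and the intervals hold counting error alone, because reads copied by PCR are not independent molecules. Adapter ligation differs in yield between sequences, so a level compared between miRNAs holds that yield as well. The label of the tissue was checked against marker lists: miR-9, miR-124 and the miR-182, miR-183 and miR-96 group of neural retina held 40.3% and 42.4% of the counts. Markers of pigment epithelium (0.415% and 0.324%), of endothelium (0.0985% and 0.0854%) and of lens, cornea and surface epithelium (0.0861% and 0.0990%) were also present, and their part in the levels of the members was not tested. The pigment epithelium counts were mostly miR-204, with miR-211-5p at 50 and 43 counts. In the lens, cornea and surface epithelium list only miR-184-3p and miR-203-3p reached a mean of 1 CPM, and miR-205 did not. Erythroid (0.0153% and 0.0168%) and muscle markers (0.00888% and 0.00920%) were lower, and leukocyte markers stood at 2.16 and 2.22 CPM. Of the 7 erythroid entries only 3 reached a mean of 1 CPM, all of them miR-486a or miR-486b. The erythroid markers miR-451a and miR-144 stayed below it. The miR-290 and miR-302 miRNAs of pluripotent and early embryonic cells were near 0, with 5 counts in each library over 8 entries.

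All members together held 831 CPM in replicate 1 (95% exact binomial interval 812 to 851) and 682 CPM in replicate 2 (665 to 701). One member supplied most of that level. miR-669c-5p had 4142 counts in replicate 1 and 3390 in replicate 2, or 497 and 418 CPM, a mean of 457 ± 56.0 CPM (SD, n = 2). That is 59.8% and 61.2% of the group's counts and rank 102 of 1358 miRNAs. The next member as listed, miR-467c-5p, stood at 53.7 and 37.7 CPM, so miR-669c-5p exceeded it 10.1-fold, a log2 ratio of 3.34 ± 0.18 (SD, n = 2) that was over 2 SD. Without miR-669c-5p the other members summed to 334 and 265 CPM.

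The level of the other members fell away quickly down the order. miR-467a-5p stood at 51.3 and 37.0 CPM, and its log2 ratio to miR-467c-5p of 0.047 ± 0.026 was within 2 SD. Summed with miR-467b-5p, whose read lies whole within its own, it stood at 63.9 and 46.1 CPM, above miR-467c-5p in both libraries. miR-467e-5p followed at 34.4 and 28.3 CPM, below miR-467a-5p by a log2 ratio of 0.48 ± 0.13, which was over 2 SD. As listed, miR-467c-5p, miR-467a-5p and miR-467e-5p form a middle level between miR-669c-5p and the rest.

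A further 5 members were listed near 10 CPM. miR-467d-5p had 12.8 and 10.0 CPM, under miR-467e-5p by a log2 ratio of 1.45 ± 0.049. miR-669l-5p had 13.9 and 8.84 CPM, and miR-467b-5p had 12.7 and 9.18 CPM. The ratios of miR-467d-5p to each of these were within 2 SD. The order among these 3 members did not hold beyond the spread between the libraries. miR-669a-5p and miR-669p-5p share a read and were each listed at 10.5 CPM in both libraries, equal shares of 175 and 171 counts. Summed, they stood above each of the 3 other members in both libraries.

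**Figure D1:**
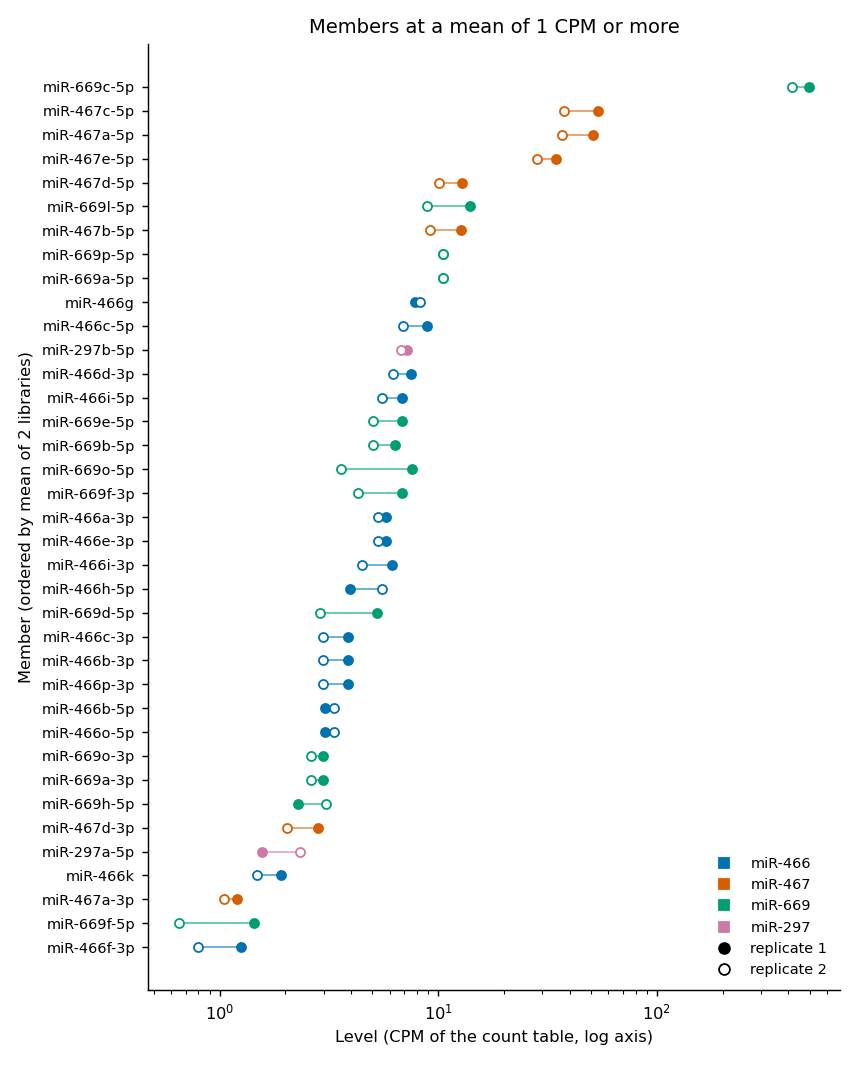
Level of each member with a mean of at least 1 CPM in the count table (log axis, CPM), 1 line per member, with filled points for replicate 1 and open points for replicate 2, coloured by family. miR-669c-5p stands alone at 497 and 418 CPM, the miR-467 5p members follow, and most members lie between 1 and 10 CPM.

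Most members were rare. A mean of at least 100 CPM was reached by 1 member against 179 of the other miRNAs, and 10 to 100 CPM by 8 members against 177 others. Another 28 members and 247 others lay between 1 and 10 CPM, and 34 members and 684 others lay under 1 CPM. In all, 51 members had counts in both libraries and 16 in only 1, the highest of these with 6 counts. The 4 members without a count were miR-467c-3p, miR-467e-3p, miR-467f and miR-669h-3p, which at this depth allows up to 0.36 and 0.37 CPM for each. The 10 highest members held 84.7% of the group's counts in both libraries.

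By family, miR-669 stood highest and miR-297 lowest. miR-669 summed to 575 and 479 CPM, miR-467 to 169 and 126 CPM, miR-466 to 76.9 and 67.8 CPM, and miR-297 to 10.1 and 10.5 CPM. The sum of miR-669 exceeded that of miR-467 3.60-fold (log2 ratio 1.85 ± 0.115, SD, n = 2), and miR-467 exceeded miR-466 2.02-fold (1.01 ± 0.175). miR-466 in turn exceeded miR-297 by a log2 ratio of 2.81 ± 0.165. The first place of miR-669 rested on miR-669c-5p, which held 86.4% and 87.2% of its family's counts. Without it miR-669 had 78.5 and 61.1 CPM, below miR-467 (log2 ratio -1.07 ± 0.0471) and within 2 SD of miR-466 (-0.06 ± 0.128).

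Outside the miR-467 and miR-669 families no member was listed at 10 CPM. In miR-466 the highest sum belonged to 5 members that list one 3p read, miR-466a-3p, miR-466b-3p, miR-466c-3p, miR-466e-3p and miR-466p-3p, at 23.1 and 19.6 CPM together. Of the other miR-466 members, miR-466g stood at 7.80 and 8.25 CPM and miR-466c-5p at 8.88 and 6.90 CPM, with a log2 ratio within 2 SD. miR-466d-3p had 62.5 and 50.2 counts. miR-297b-5p, at 7.20 and 6.77 CPM, held 71.3% and 64.8% of the miR-297 counts. Among 3p members of the remaining families, miR-669f-3p reached 6.84 and 4.31 CPM and miR-467d-3p 2.82 and 2.03 CPM. miR-297a-3p, miR-297b-3p and miR-297c-3p were listed at 3.7 and 3.3 counts each.

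The miR-379 to miR-410 list is another large imprinted miRNA cluster, expressed from the maternal copy and known from brain. It also had 71 entries in the table, and these summed to 16018 and 14502 CPM. The Sfmbt2 families were 20.2-fold lower in sum (log2 ratio -4.34 ± 0.0996, SD, n = 2). At the level of single miRNAs, miR-669c-5p resembled miR-672-5p, a miRNA of no member family whose read also holds alternating TG, at 465 and 469 CPM. The log2 ratio of miR-672-5p to miR-669c-5p was -0.10 in replicate 1 and 0.17 in replicate 2. miR-574-5p, with a longer TG run in its read (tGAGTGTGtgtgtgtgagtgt), stood at 23.4 and 14.7 CPM, and miR-669c-5p exceeded it 24.5-fold (4.62 ± 0.298).

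In the GENCODE M21 annotation of mouse build GRCm38, 81 hairpins carry names of these families. Of these, 71 lie inside Sfmbt2 on its own strand (chr2:10370510-10595253, plus strand, a protein-coding gene), all in a single intron (chr2:10461473-10523944, intron 11 of a transcript with 23 exons). The intron holds 23 of 28 miR-466 hairpins, 14 of 17 of miR-467, 29 of 30 of miR-669 and 5 of 6 of miR-297, interleaved along its length. By name, 77 hairpins matched a member, and Mir466, Mir466q, Mir669i and Mir669j did not. The 68 matched hairpins inside Sfmbt2 span 51.6 kb, beginning 96.2 kb from the annotated start of the gene, and none overlaps an exon.

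Members whose named hairpins all lie in Sfmbt2 numbered 56 and held 96.9% ± 0.0895 of the group's counts (SD, n = 2). Another 5 members have hairpins both inside and outside and held 0.575%. The 8 members named only for hairpins elsewhere held 1.78%. These hairpins are Mir466j on chromosome 10, Mir467f on chromosome 11, Mir466i on chromosome 13, Mir466k and Mir669n on chromosome 3, Mir467g on chromosome 5 and Mir467h on chromosome 9, none within a gene on the same strand. The 2 arms of miR-466a were not matched to a hairpin by name.

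**Figure D2:**
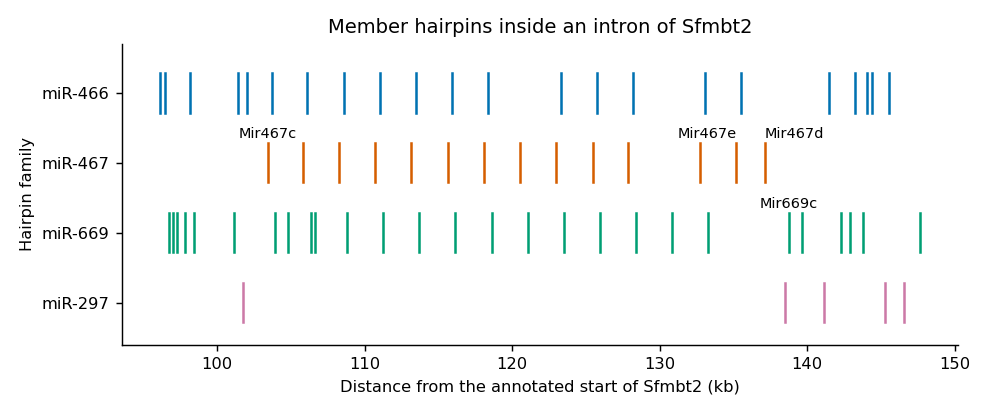
Position of the 68 hairpins inside Sfmbt2 that matched a member by name, as distance in kb from the annotated start of the gene, 1 row of marks per family. The families alternate over 51.6 kb, and the hairpins of miR-669c, miR-467c, miR-467d and miR-467e are labelled.

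The match of reads to annotated hairpin transcripts separated members whose most frequent read lay in 1 hairpin from members whose read lay in several. Of the 37 members at 1 CPM or more, the read of 14 lay in exactly 1 hairpin, that of 22 in several and that of 1, miR-466g, whose last base is marked as a mismatch, in none, after bases marked as added at the 3′ end were removed. miR-669c-5p fitted Mir669c alone (chr2:10509296-10509404), so the most frequent read behind its 4142 and 3390 counts has 1 annotated locus. miR-467c-5p, miR-467e-5p, miR-467d-5p and miR-669l-5p also fitted 1 hairpin each, at chr2:10473931-10474027, chr2:10505721-10505807, chr2:10507630-10507714 and chr2:10468971-10469068. Each of these members had a fractional count in 1 library (447.5, 229.5, 81.5 and 71.8 counts). Not all of their counts need come from the hairpin of the most frequent read. The read of miR-467a-5p lay instead in 12 hairpins, the same 12 as the read of miR-467b-5p. That of miR-669a-5p and miR-669p-5p lay in 15, where their summed 175 and 171 counts come to 11.7 and 11.4 counts per hairpin.

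The name of a member did not always give the place of its read. Of the 37 members, the reads of 33 occurred only in hairpins inside Sfmbt2, with added ends removed. Only the reads of miR-466i-5p, miR-297a-5p and miR-466f-3p then occurred in any hairpin outside. The full read of miR-466f-3p, with its 2 bases marked as added, lay only in Mir466f-3, inside Sfmbt2. With full reads, 27 members had hairpins inside Sfmbt2 only, 2 had any outside and 8 had none. miR-466i-3p and miR-466k are named for hairpins outside Sfmbt2, and their reads differ from the RefSeq mature sequence (build GRCm38) by 1 base. For miR-466i-3p (51.5 and 36.5 counts) the change is A22C and for miR-466k (16 and 12 counts) A23T, with the RefSeq base first, the position counted from 1 at the 5′ end and the base of the read last. Both pairs are shown with bases 2 to 8 in capitals.
miR-466i-3p in RefSeq: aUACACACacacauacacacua
miR-466i-3p in both libraries: aTACACACacacatacacactct
miR-466k in RefSeq: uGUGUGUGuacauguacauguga
miR-466k in both libraries: tGTGTGTGtacatgtacatgtgt
With its added end removed, the first read lay in 1 hairpin, Mir466f-2, inside Sfmbt2, and the second in 9 hairpins, all inside Sfmbt2. The read of miR-466i-5p (57 and 45 counts) lay in 7 hairpins, none of them in Sfmbt2.

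Many counts were split between members. The deposited counts were not whole numbers for 42.3% of members in each library, against 4.82% and 3.96% of the other miRNAs. Over either library 39 of 71 members (54.9%) had such a value, against 6.37% of the others. Members with fractional values held 71.3% and 40.3% of the miR-467 counts, 44.9% and 46.4% of those of miR-466, 13.2% and 11.7% of those of miR-297, and 4.77% and 8.88% of those of miR-669. miR-669c-5p was whole in both libraries, so its level did not include a visible split.

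Equal values stood beside equal reads. Members fell into 7 sets with the same count, within 0.01, in both libraries, and each set listed the same read. The counts of each set were fractional in 1 library or in both, so a share can also be a whole number. miR-669a-5p and miR-669p-5p had 87.5 and 85.5 counts each. miR-466a-3p and miR-466e-3p had 48 and 43.2 each, and miR-466b-3p, miR-466c-3p and miR-466p-3p had 32.1 and 24.2 each. All 5 of these miR-466 members list one read, with 192.3 and 159 counts between them, so their separate values cannot be read as separate levels.

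The remaining sets were low. miR-466b-5p and miR-466o-5p had 25.3 and 27 counts each, miR-669a-3p and miR-669o-3p 24.8 and 21.3, the 3 miR-297 3p members 3.7 and 3.3, and miR-466m-5p and miR-669m-5p 2.8 and 1.2. Of 53 members with a read in both libraries, 16 (30.2%) shared it with another member, against 10 of 910 other miRNAs (1.10%). miR-467b-5p is a related case, since its read lies whole within that of miR-467a-5p and starts 1 base after its own annotated start.

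Grouped by the seed of their read, 45 members with the same seed in both libraries fell into 25 seeds. Of these, 10 were shared by more than 1 member, covering 30 members. Members that list one read were counted separately here, among them 5 of the 6 with the seed TACATAC. The seed TAGTTGT of miR-669c-5p was held by no other listed miRNA and carried 497 and 418 CPM. AAGTGCG (miR-467c-5p and miR-467d-5p) carried 66.5 and 47.7 CPM, AAGTGCC (miR-467a-5p and miR-467b-5p) 63.9 and 46.1 CPM, and GTTGTGT (miR-669a-5p, miR-669f-5p, miR-669l-5p and miR-669p-5p) 36.3 and 30.6 CPM. The 6 members with TACATAC, all miR-466 3p, summed to 23.2 and 19.7 CPM, and the 3 with GATGTGT to 14.9 and 13.5 CPM. By seed, AAGTGCG and AAGTGCC of the miR-467 5p members form the second level of the group. TAAGTGT of miR-467e-5p, at 34.4 and 28.3 CPM, lay below GTTGTGT in both libraries.

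Few other miRNAs held these seeds. Of the 25 seeds, 1 occurred in another miRNA of the table, TAAGTGT of miR-467e-5p in miR-668-5p, at 0.36 and 0.12 CPM. Bases 2 to 7 of miR-467a-5p, miR-467b-5p, miR-467c-5p and miR-467d-5p, AAGTGC, were also those of miR-350-5p, at 98.7 and 94.2 CPM. They were also those of miR-302a-3p, miR-302b-3p and miR-302d-3p of early embryonic cells, each with at most 2 counts in a library. Over bases 2 to 7, TATACA of miR-467a-3p and miR-467d-3p was also held by let-7a-1-3p and let-7c-2-3p, each listed at 91.0 and 62.6 CPM. GTCTTG of miR-669e-5p was also held by miR-431-5p, at 33.9 and 22.9 CPM.

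Simple repeats were common in the reads of the members. The run TGTGTG or GTGTGT was present in the most frequent read of 25 of 31 5p members (80.6%) and in none of 28 3p members. The complementary run ACACAC or CACACA was present in 26 of 28 3p members (92.9%) and in no 5p member. The 2 motifs of each pair overlap each other, and each pair is the other's reverse complement, so both strands are covered. Either run was present in 57 of 67 members with a read (85.1%), against 29 of 1145 other miRNAs (2.53%). No miR-467 read held a TG run, as in miR-467c-5p above. Members with TG runs held 97.3% of the miR-669 counts in both libraries and 39.3% and 40.4% of the miR-466 counts. miR-1187, a non-member with a TG run, had 11 and 13 counts.

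**Figure D3:**
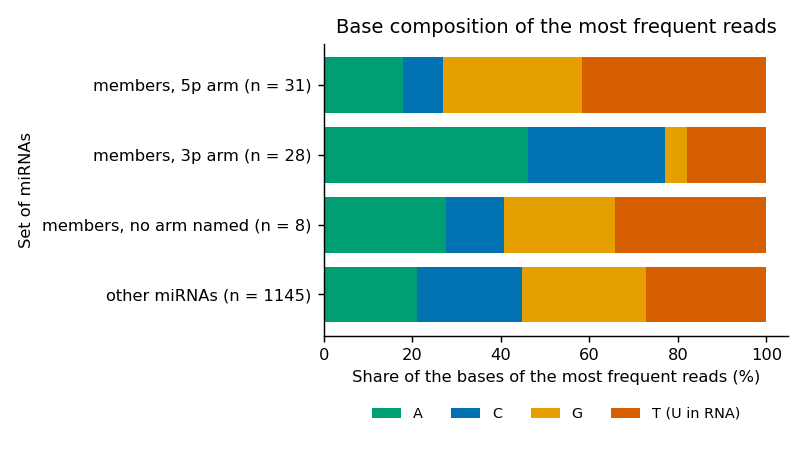
Share of each base (percent) in the most frequent reads of 5p members, 3p members, members with no arm in the name and all other miRNAs, with the number of miRNAs beside each bar. T and G make up 41.6% and 31.4% of the bases of 5p members, and A and C make up 46.1% and 31.1% of those of 3p members.

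The 5p arms carried most counts. All 5p members summed to 13.3 times the 3p members (log2 ratio 3.74 ± 0.014, SD, n = 2). Of these 5p counts, miR-669c-5p alone held 4142 of 6362.5 in replicate 1 and 3390 of 5074.3 in replicate 2. By family the log2 ratio was 5.46 ± 0.117 for miR-669, 5.28 ± 0.0788 for miR-467 and 2.76 ± 0.139 for miR-297. In miR-466 it was -0.42 ± 0.0905, so that the 3p arms were the higher in both libraries. The ratios of miR-669 and of all members rest largely on miR-669c-5p, which held most of the miR-669 5p counts (4683.8 and 3804.1).

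Arms were compared wherever a hairpin name had an entry for each arm and these summed to 10 counts or more in each library, with an exact binomial test adjusted over all hairpins and both libraries. A hairpin was counted as dominated by an arm where that arm was at least 4-fold higher in both libraries with adjusted p below 0.05. Of 312 hairpins in the table, 126 (40.4%) were 5p-dominated and 115 (36.9%) 3p-dominated. Of 23 member hairpins tested, 13 were 5p-dominated, 4 were 3p-dominated and 6 were neither, a higher and a lower share than in the table, and this difference was not tested. Only 5 of the 23 had whole counts on both arms in both libraries, miR-669c, miR-669e, miR-669b, miR-669h and miR-466h, and all 5 of these were 5p-dominated. The other 8 5p-dominated, all 4 3p-dominated and all 6 remaining hairpins had a fractional value on an arm. For instance, the 5p counts of miR-669p and miR-466o are shares of reads also listed for miR-669a and miR-466b. All 5 miR-467 hairpins were 5p-dominated, as were 5 of 8 of miR-669, 2 of 8 of miR-466 and 1 of 2 of miR-297.

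At higher levels the difference was large. The miR-669c arms had 4142 against 0 counts in replicate 1 and 3390 against 3 in replicate 2, and miR-467c had 447.5 and 306 counts on the 5p arm and none on the 3p arm. The 5p arm of miR-467a held 97.7% and 97.2% of its listed counts. The 5p share of miR-467d, at 82.0% and 83.2%, was the lowest listed for a miR-467 hairpin (adjusted p 1.65e-13 and 1.10e-11, exact binomial test). Its 3p read in replicate 1 is also that of miR-467a-3p and lies in 12 hairpins. The 3p counts can thus be assigned neither to miR-467d alone nor to miR-467a alone. miR-669a had 77.9% and 80.1% of its listed counts on the 5p arm, and the counts of both arms are shares of reads listed for another member.

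The 3p-dominated hairpins were miR-669f, miR-466a, miR-466e and miR-466p. miR-669f had 57 and 35 counts on the 3p arm against 12 and 5.3 on the 5p arm. For the 3 miR-466 hairpins the 3p count was a share of the single read described above. The count therefore cannot be assigned to any 1 of them. The arms of miR-466i were near balance, with 52.5% and 55.2% on the 5p arm, and here too the 3p values were not whole.

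**Figure D4:**
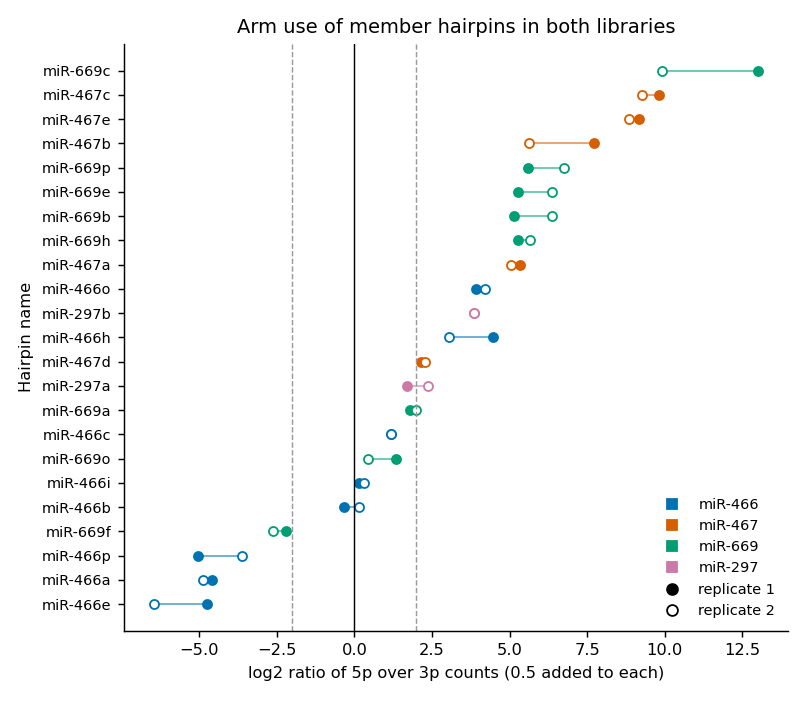
Log2 ratio of 5p over 3p counts (0.5 added to each) for the 23 member hairpins tested, with filled points for replicate 1 and open points for replicate 2, coloured by family. Dashed lines mark a 4-fold difference; 13 hairpins lie beyond it to the right in both libraries and 4 to the left.

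The most frequent reads were stable between the libraries above the lowest levels. At 1 CPM or more, 35 of 37 members (94.6%) listed the same read in both, against 82.3% of the other miRNAs. From 1 to 10 CPM the shares were 92.9% and 67.2%. miR-467d-3p and miR-297a-5p differed, in the length of the 3′ end only. Over all 53 members with a read in both libraries, the share was 75.5%. Members that list the same read, such as 5 of the miR-466 3p members, were counted separately in these shares.

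At 1 CPM or more, 30 of 37 members (81.1%) started at the annotated base in both libraries, against 83.9% of the other miRNAs. Another 5 (13.5%, against 6.14%) started later and 2 (5.41%, against 6.63%) earlier, and no member had a start that differed between libraries. The later starts were those of miR-467b-5p, miR-466a-3p, miR-466e-3p, miR-467a-3p and miR-466f-3p, each by 1 base, and the earlier ones those of miR-466i-5p and miR-669h-5p. Of these, miR-466a-3p and miR-466e-3p list the same read, which starts at the annotated base of miR-466b-3p, miR-466c-3p and miR-466p-3p. The read of miR-467a-3p is also that of miR-467d-3p in replicate 1, at the annotated start of miR-467d-3p. That of miR-467b-5p lies within the read of miR-467a-5p, at the annotated start of miR-467a-5p. These later starts thus cannot be assigned to the hairpins of the members listed as shifted. A shifted start changes the seed, so the capitals printed for miR-467b-5p, miR-466a-3p and miR-466e-3p are not those of the annotated miRNA. Added 3′ bases were marked in 12 of the 37 members (32.4%), against 25.2% of other miRNAs. These include the last 2 bases of the miR-669c-5p read, which are also present in the Mir669c hairpin.

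A two-sided exact binomial test set the libraries against each other for the 710 miRNAs whose counts summed to 10 or more, with Benjamini-Hochberg adjustment over all of them. The test compares these libraries, not conditions, and sees counting error alone. Of all tested, 19.6% were lower and 8.31% higher in replicate 2. Of 38 members tested, 5 were lower and none was higher at adjusted p below 0.05, and 9 had an unadjusted p below 0.05, against 239 of all 710. From 10 to 100 CPM, 3 of 8 members and 32 of 177 others were lower. The median log2 ratio of replicate 2 over replicate 1 was -0.31 for members and -0.12 for all miRNAs tested. In that class it was -0.41 for members and -0.11 for others.

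miR-669o-5p differed most among the members that passed the test, with 63 and 29.3 counts (log2 ratio -1.07, adjusted p 0.00359, exact binomial test). miR-669c-5p was lower by a log2 ratio of -0.25 (adjusted p 5.83e-13), miR-467c-5p by -0.51 (9.43e-06) and miR-467a-5p by -0.47 (7.15e-05). miR-669l-5p, at -0.65 (adjusted p 0.0118), did not pass under TMM scaling (0.0578). TMM moved the median of all miRNAs to -0.004 and that of members to -0.20. Thus miR-669c-5p, miR-467c-5p, miR-467a-5p and miR-669o-5p differed between the libraries by more than independent reads would. This spread is part of the SD of the CPM of miR-669c-5p above. The SD of the CPM was 11.3 for miR-467c-5p and 10.1 for miR-467a-5p. Of the members that passed, only miR-669c-5p had whole counts in both libraries, and the part of split counts in the differences was not tested. The test takes reads as independent, which copies by PCR are not. Among members at 10 CPM or more, miR-467e-5p, miR-467d-5p, miR-467b-5p, miR-669a-5p and miR-669p-5p did not pass.

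**Figure D5:**
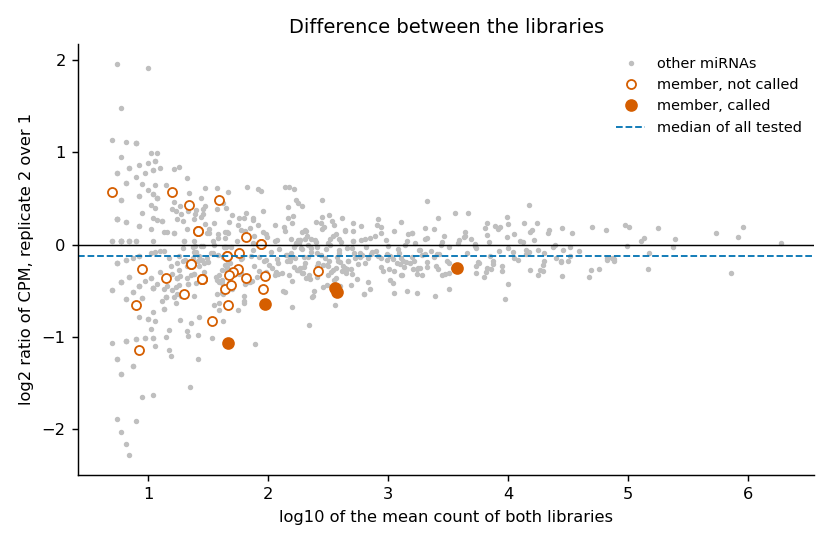
Log2 ratio of CPM in replicate 2 over replicate 1 against the log10 of the mean count, with members as orange circles, filled where the exact binomial test passed, and other miRNAs as grey points. The dashed line is the median of all 710 miRNAs (-0.12), and all 5 filled circles lie below it.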

How the data were processed

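Small RNA of the newborn retina was sequenced in 2 libraries of 1 group. The submitters' processing notes name bcl2fastq 2.17.1.14 for writing the reads. Aligner, counter and build: not given in the sources used here. The authors deposited estimated counts per mature miRNA with no scaling, and a table of CPM whose columns sum to 88.5% of 1000000. They also deposited the most frequent read of each miRNA. Per the file headers, its marks refer to miRBase release 21. The mark for missing 5′ bases is not explained there and was read from the values. Where RefSeq gave the mature sequence, all 84 reads with this mark started at the base it gives.

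CPM was recomputed from the counts and the table totals, 8337902 and 8118208. Counts were rounded for every test and 0.5 was added to each in a log2 ratio. Sums over members were compared as log2 ratios within each library against 2 SD, with no p-value. Alternatives were TMM (edgeR 4.0.16) and DESeq2 1.42.0 size factors in R 4.3.3, other count minimums, folds and sets of members, and single libraries. Leaving out miR-669c-5p was chosen after seeing the data. Plots were drawn in matplotlib 3.10.9 and other values computed in Python 3.11.15 (statsmodels 0.14.6, SciPy 1.17.1, pandas 2.3.3). The between-library and arm tests were tested on simulated data.

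Hairpin positions are from GENCODE M21 (GRCm38). RefSeq mature sequences matched 7 of 71 members, so the deposited reads were used. Members named in the text are those at 10 CPM or more, those that differed between libraries, the highest of each family and arm, sets with equal counts, members with shifted starts and hairpins with a dominant arm; the other members named were chosen after their values were seen. Members and lists were chosen with earlier results of these data known.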

Additional observations from a re-analysis of the deposited data

How the results depend on the processing

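The share of counts, 0.0757%, stayed within 1 SD with the authors' deposited CPM, rounded counts, members detected in each library or members wholly in Sfmbt2, and was 0.0682% and 0.0831% in single libraries. It was 0.0300% without miR-669c-5p. That step also turned the log2 ratio of miR-669 over miR-467 from 1.85 to -1.07 and over miR-466 to -0.060. With members of whole counts only, the miR-467 sum was 0 and 2 counts, too few for a ratio to that family. Single libraries gave 1.77 and 1.93 for miR-669 over miR-467. Against the miR-379 to miR-410 list, the ratio without the highest member of each was -5.25, and -4.41 to -4.27 in single libraries. With a minimum of 50 counts over both arms, 8 of 13 member hairpins were dominated by the 5p arm and 0 by the 3p arm, where fewer hairpins were tested. With single libraries the numbers were 13 and 14 for the 5p arm and 4 for the 3p arm. The same read was listed in both libraries for 94.1% of members with at least 10 counts in each. Between libraries, 4 members passed under TMM and 5 under every other setting. Leaving out a library gives no value there or for reads. No paired analysis was possible because the series holds 1 group. Members under 10 counts, 34 of 71 in both libraries, are limited by depth.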
